A study of Mus musculus with 27 samples.

Results

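The carbonic anhydrases described here are the 8 genes Car1, Car2, Car3, Car4, Car8, Car9, Car12 and Car13, chosen by gene name from the 39971 genes of a table of colon RNA sequencing in mice. RNA came from BALB/c mice labelled wild type, in 27 libraries of 5 groups, each taken as 1 mouse. The NC group (n = 6) was unexposed to carcinogen, received saline by both routes, and gave colon. The other groups had been exposed to the carcinogen azoxymethane and the colon irritant dextran sulfate sodium (AOM/DSS), had developed neoplasia in an inflamed colon, and gave a colon segment that carried tumor. CAC (n = 5) received saline by both routes. CAC_F (n = 5) received intraperitoneal FOLFOX, which combines folinic acid, fluorouracil and oxaliplatin. CAC_FP (n = 5) received FOLFOX and a complex of probiotics by gavage. CAC_FPL (n = 6) received FOLFOX, the probiotics and loperamide, an opioid agonist that slows the gut, by gavage. Tissue was taken 1 week after chemotherapy began. The sources used here give neither age nor sex. NC 1 stands for replicate 1 of NC, and likewise for the other groups. Tissue source and AOM/DSS exposure coincide, so they cannot be told apart in any comparison with NC, and each segment mixes tumor with the other tissue of the colon wall.

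Carbonic anhydrases interconvert carbon dioxide and bicarbonate, releasing or taking up a proton. In the colon they supply bicarbonate and protons to the exchangers of the surface epithelium, which absorb sodium and chloride and secrete bicarbonate. Car1, Car2, Car3 and Car13 encode cytosolic enzymes. Car4 encodes an enzyme held on the outer face of the membrane by a lipid anchor, and Car9 and Car12 encode enzymes that span the membrane with their active site outside the cell. Car8 encodes a relative with no catalytic activity that binds the inositol trisphosphate receptor.

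The active site holds a zinc ion on 3 histidines, and the codons for these residues show what the 7 enzyme genes share. The stretches of coding sequence that contain them are given below 5′ to 3′ from GENCODE M21 transcripts, with the codons at the 3 zinc positions in capitals. They were read from the reference, not from these mice.
Car1: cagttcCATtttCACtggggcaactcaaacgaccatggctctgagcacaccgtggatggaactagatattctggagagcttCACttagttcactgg
Car2: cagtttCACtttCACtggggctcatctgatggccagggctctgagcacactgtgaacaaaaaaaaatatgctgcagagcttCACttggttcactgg
Car3: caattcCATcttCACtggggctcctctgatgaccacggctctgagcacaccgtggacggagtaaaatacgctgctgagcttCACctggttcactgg
Car13: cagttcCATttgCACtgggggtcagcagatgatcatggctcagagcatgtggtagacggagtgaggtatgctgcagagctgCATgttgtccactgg
Car4: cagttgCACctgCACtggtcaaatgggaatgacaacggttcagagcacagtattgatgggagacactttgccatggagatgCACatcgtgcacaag
Car9: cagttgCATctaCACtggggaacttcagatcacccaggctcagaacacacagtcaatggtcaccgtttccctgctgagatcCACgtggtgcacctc
Car12: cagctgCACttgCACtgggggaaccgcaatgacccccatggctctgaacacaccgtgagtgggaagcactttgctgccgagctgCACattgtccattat
The 7 enzyme genes had a histidine codon (CAT or CAC) at each zinc position. The search that located the stretches required histidine at zinc positions 2 and 3. At position 1 it allowed histidine or arginine, so only position 1 could have differed. Over this 96-base stretch Car3 shared 83.3% of its bases with Car2, Car1 shared 78.1% and Car13 shared 70.8%. The membrane enzymes were farther from Car2, with 62.5% for Car9 and 57.3% for Car4. Car12 was not compared base by base because its stretch is 99 bases long. Car1, Car2, Car3 and Car13 lie next to one another on chromosome 3, Car8 and Car9 lie on chromosome 4, Car4 on chromosome 11 and Car12 on chromosome 9.

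Levels are given as the deposited FPKM, fragments per kilobase of gene scaled for library depth, which allows genes to be compared per length. Changes are log2 fold changes ± standard error (SE) from edgeR's quasi-likelihood test on the deposited counts of all 27 libraries. A change is called where the Benjamini-Hochberg adjusted p is below 0.05, adjusting over the 15080 genes that reached 1 FPKM in 5 or more libraries. All 8 genes passed this filter: 6 of them reached that level in all 27 libraries, Car8 in 26 and Car3 in 15. Total counts ran from 56687812 to 79709845 per library. Epithelial markers were high throughout, their summed FPKM over 8 genes running from 2704 to 5700. In CAC replicate 2 and CAC_FPL replicate 3 the distal position gene Hoxb13 stood at 43.51 and 119.91 FPKM, against at most 2.47 elsewhere. Some results for Car1, Car4, Car8, Car9 and Car13 are also given without these libraries, but not for every gene or comparison that they touch.

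Car1 was the most abundant of the 8 in every library but its amount varied several-fold within groups, and its share of the summed FPKM of the 8 genes ran from 49.8% to 95.1%. Car2 followed at a median of 203.94 FPKM over the 27 libraries and Car4 at 58.53. Car9 had a median of 25.57, Car8 of 23.63, Car13 of 19.20 and Car12 of 16.33 FPKM. Car3 had a median of 1.80 FPKM but reached 649.79 in 1 library. The plot of levels by library shows that the spread within groups differed greatly between genes.

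**Figure D1:**
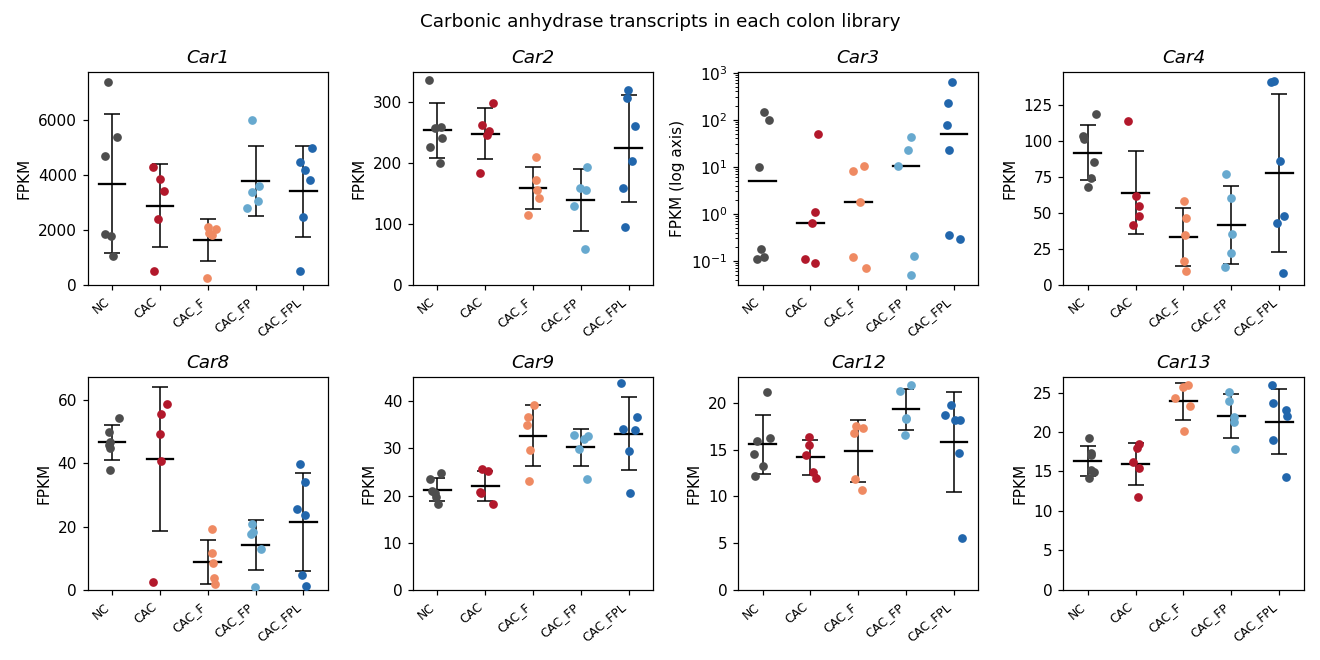
FPKM of the 8 carbonic anhydrase genes (vertical axes, linear from 0 except Car3, which is on a log axis) in the 27 libraries, 1 point per mouse, by group. Bars are the mean with 1 SD, and for Car3 the median only. Car13 in the 5 CAC_F libraries lies between 20.14 and 25.91, above all 5 CAC libraries, whereas Car1 libraries of the 2 groups overlap.

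Tumor-bearing AOM/DSS colon did not differ detectably from unexposed colon in any of the 8 genes. Of the 15080 genes tested, 0.00663% were called between CAC and NC, and 0 of the 8 were. None of the 8 had an unadjusted p below 0.05, and DESeq2 and voom called 0 of them as well. The fitted log2 fold changes were negative for all 8, from -0.02 ± 0.15 for Car9 to -2.03 ± 1.97 for Car3, though Car9 turned to 0.06 with scaling by total counts. Car9 had a mean of 22.1 ± 3.2 FPKM in CAC (SD, n = 5) and 21.3 ± 2.4 in NC (SD, n = 6). Car4 had a mean of 64.0 ± 29.0 FPKM in CAC (SD, n = 5) and 92.1 ± 19.3 in NC (SD, n = 6), a log2 fold change of -0.58 ± 0.54 (edgeR, adjusted p = 0.859). The interval of 2 SE around this change runs from -1.67 to 0.51, so a sizeable loss of Car4 would not have been detectable with this number of mice.

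FOLFOX alone was followed by changes in both directions. Between CAC_F and CAC, 39.1% of all tested genes were called, and 4 of the 8 carbonic anhydrases were: Car9 and Car13 were higher and Car2 and Car8 were lower. With so much of the transcriptome called, that count is close to the background. The median log2 fold change of the 8 was -0.83, against -0.03 over all tested genes. The comparisons of CAC_F, CAC_FP and CAC_FPL with CAC share the CAC libraries, so they are not independent of one another.

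Car2, the fast cytosolic enzyme of colonocytes, was the only gene of a cytosolic enzyme called lower in CAC_F than in CAC. Car1 and Car3 had larger fitted drops, -0.93 ± 0.60 and -1.53 ± 2.00, that were not called. Its FPKM was 298.49, 183.96, 245.80, 262.60 and 252.42 in the 5 CAC mice. The CAC_F mice had 155.46, 115.30, 143.47, 171.64 and 209.80 FPKM. CAC_F thus lay below CAC except for replicate 5, which exceeded the lowest CAC library. The log2 fold change was -0.73 ± 0.29 (edgeR, adjusted p = 0.0451), close to the threshold. The call was lost when any 1 of 16 libraries was left out, namely NC 1, 3 or 4, CAC 1, 3, 4 or 5, CAC_F 1, 2, 3 or 4, CAC_FP 1, 2 or 5 and CAC_FPL 1 or 5, with adjusted p from 0.0504 to 0.122 in those fits. It was also lost with no filter (0.109), median-ratio size factors (0.0514), total counts (0.0722) and limma at either pseudocount (0.0774 and 0.0783), so that 17 of the 38 alternative fits kept it.

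Car2 was also low when probiotics accompanied FOLFOX. The 5 CAC_FP mice had 155.20, 159.58, 58.42, 193.44 and 129.62 FPKM. Of these, replicate 4 lay above the lowest CAC library and the other 4 lay below all of CAC. The change from CAC was -0.93 ± 0.29 on the log2 scale (edgeR, adjusted p = 0.0278). Leaving out CAC 1, CAC 4, CAC 5, CAC_FP 3 or CAC_FP 5 gave adjusted p from 0.0538 to 0.0809, and no filter gave 0.0649. Against NC, whose 6 libraries ran from 200.97 through a median of 249.64 to 336.38 FPKM, all CAC_FP libraries were lower, and the change was -1.01 ± 0.28 (edgeR, adjusted p = 0.0102). In that comparison 26.5% of all genes were called and Car2 was the only one of the 8. With loperamide added, Car2 ran from 94.90 to 320.30 FPKM with a median of 232.75 in the 6 CAC_FPL mice. CAC_FPL 1, 2 and 3 had 261.55, 307.42 and 320.30 FPKM, and CAC_FPL 4, 5 and 6 had 158.39, 203.94 and 94.90. The median and the fitted changes of CAC_FPL thus average unlike libraries. The full range covers both the CAC and most of the CAC_FP values. The change from CAC was -0.20 ± 0.27 (edgeR, adjusted p = 0.730). Set against CAC_FP, the CAC_FPL level of Car2 was higher by 0.73 ± 0.28 on the log2 scale, with an unadjusted p of 0.0143 but an adjusted p of 0.693 in edgeR.

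Car13, another cytosolic enzyme, was the most even of the 8 and rose after FOLFOX. In CAC it stood at 18.02, 18.42, 16.24, 15.50 and 11.76 FPKM. In CAC_F it stood at 25.91, 25.71, 24.36, 20.14 and 23.28 FPKM. Every CAC_F library was above every CAC and every NC library, NC running from 14.16 to 19.20. The log2 fold change from CAC was 0.51 ± 0.13 (edgeR, adjusted p = 0.00429), and it was called in each of the 38 alternative fits. CAC_FP mice had 21.96, 21.23, 25.09, 23.98 and 17.88 FPKM, and only replicate 5 fell within the CAC range. The change from CAC there was 0.39 ± 0.13 (edgeR, adjusted p = 0.0426). It lost its call without CAC 3, CAC 4, CAC 5, CAC_FP 1, CAC_FP 2, CAC_FP 3 or CAC_FP 4, with adjusted p from 0.0527 to 0.122, and also with no filter (0.0726), with only the 2 groups compared (0.0545) and with voom (0.0505). In CAC_FPL the level ran from 14.32 through a median of 22.44 to 25.89 FPKM, 0.36 ± 0.13 above CAC on the log2 scale (edgeR, adjusted p = 0.127).

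Car1, the abundant cytosolic enzyme of surface colonocytes and of red blood cells, had its lowest group mean in CAC_F. The CAC mice had 3835.00, 505.95, 3396.99, 4280.19 and 2406.02 FPKM. The CAC_F mice had 2106.99, 258.18, 1886.87, 1827.57 and 2023.03 FPKM. Apart from CAC 2, every CAC library was above every CAC_F library. The change was -0.93 ± 0.60 on the log2 scale and was not called (edgeR, adjusted p = 0.220). Without CAC 2 and CAC_FPL 3 it was -1.18, with an adjusted p of 0.0584.

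With probiotics Car1 did not show this low level. The CAC_FP mice had 3392.70, 3046.96, 3609.47, 5990.58 and 2800.52 FPKM, all above the highest CAC_F library. The difference between CAC_FP and CAC_F was 1.21 ± 0.60 on the log2 scale, with an unadjusted p of 0.0546 and an adjusted p of 0.326 in edgeR, so the separation of the 2 groups did not pass the test. CAC_FPL ran from 509.19 through a median of 3999.27 to 4997.05 FPKM, and its change from CAC_F was 1.09 ± 0.58 (edgeR, adjusted p = 0.202). NC ran from 1029.30 through a median of 3272.03 to 7399.38 FPKM, overlapping every other group.

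Red blood cell genes differed strongly between groups. The 10 red cell genes, globins among them, summed to 27.1 to 58.9 FPKM in NC and 32.5 to 297.5 in CAC. They summed only to 0.15 to 0.38 in CAC_F and 0.38 to 0.70 in CAC_FP. Car1 stood between 258.18 and 2106.99 FPKM in CAC_F and between 2800.52 and 5990.58 in CAC_FP. In CAC_FPL 1, 2 and 3 the sum was 217.2, 70.47 and 39.7 FPKM. In CAC_FPL 4, 5 and 6 it was 0.20, 1.12 and 4.98 FPKM. Both Car1 and the red cell genes had their lowest level in CAC_F. CAC_FP, also very low in red cell genes, had the highest group mean of Car1, 3768 FPKM. The part of red cells in the Car1 values was not tested.

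Car3, a cytosolic enzyme of low activity known from fat and muscle, was near 0 in many libraries and far higher in 1 or more libraries of every group. The NC mice had a median of 5.08 FPKM, with 149.72 at the top and 0.11 at the bottom. In CAC the values were 0.11, 0.09, 1.09, 0.64 and 50.92 FPKM. CAC_FPL ran from 0.29 through 50.44 to 649.79 FPKM. The groups overlapped throughout, and edgeR called Car3 in no comparison. Its largest fitted difference was between CAC_FPL and CAC_F, 5.37 ± 2.32 on the log2 scale with an unadjusted p of 0.0295 and an adjusted p of 0.118 in edgeR, which DESeq2 called with an adjusted p of 0.0142. The sign of the difference between CAC_F and CAC, -1.53 ± 2.00 (edgeR, adjusted p = 0.569), rested on 1 mouse: without CAC 5 it was 2.92.

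The gene whose profile over the 27 libraries was most like that of Car3 was Adipoq, the fat cell hormone adiponectin, followed by Plin1, which coats fat droplets, and Retn, another fat cell hormone. Likeness was measured as the root mean square difference of centred log2 counts-per-million, 0.99 for Adipoq, 1.17 for Plin1 and 1.53 for Retn, where Car3 itself had an SD of 4.18. In CAC_FPL 1, the library with the highest Car3, Adipoq was at 149.45 FPKM, and in CAC_FPL 6, with 228.27 FPKM of Car3, it was at 91.62. In the 5 libraries with Adipoq listed at 0, Car3 was at 0.05 to 0.12 FPKM. The sum of the 10 adipocyte genes ran from 45.7 to 484 FPKM over the NC mice, and CAC mice had 25.1 to 185. For CAC_F it ran from 21.9 to 288, while CAC_FP mice had 28.7 to 684, and the CAC_FPL mice, which also had the highest Car3, reached 1325 from a low of 31.8. The 10 skeletal muscle genes in the table summed to 3.46 to 35.5 FPKM over all libraries. Of the 10 adipocyte genes edgeR called 1 between CAC_F and CAC, Pck1, which epithelium also expresses, at -2.97 ± 0.46. How much of the Car3 differences comes with the amount of fat in the segment was not tested. In bulk tissue more cells of a type and more RNA per cell cannot be told apart, for Car3 or for any other gene here.

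**Figure D2:**
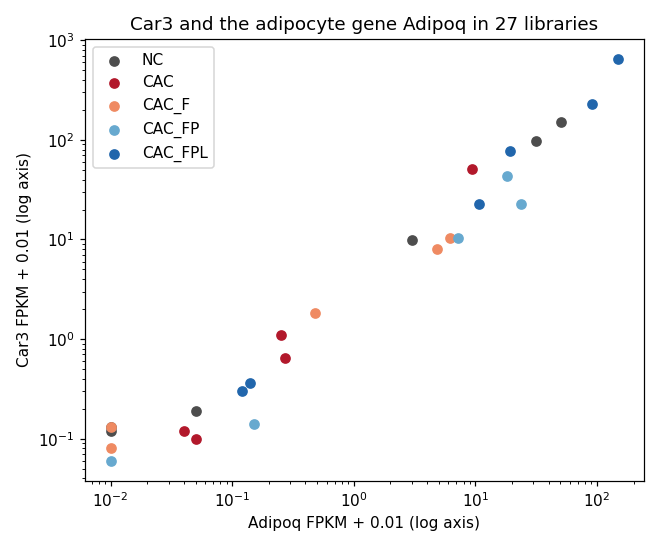
Car3 FPKM (vertical, log axis) against Adipoq FPKM (horizontal, log axis), each plus 0.01, with 1 point for each of the 27 libraries colored by group. Libraries high in one gene are high in the other in all 5 groups, up to 649.79 FPKM of Car3 beside 149.45 of Adipoq in CAC_FPL 1.

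Car4, the lipid-anchored enzyme on the luminal face of colonocytes, was lower after FOLFOX than in unexposed colon. NC ran from 68.05 through a median of 93.60 to 119.07 FPKM. The CAC_F mice had 34.39, 9.68, 46.62, 58.53 and 16.45 FPKM, all below every NC library. This change was -1.62 ± 0.56 on the log2 scale (edgeR, adjusted p = 0.0213), with adjusted p of 0.0641 without CAC_F 2 and 0.0609 without CAC_F 5. Between CAC_F and NC 46.3% of all genes were called and 5 of the 8 carbonic anhydrases, with Car2, Car4 and Car8 lower and Car9 and Car13 higher.

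CAC lay between those groups, at 61.93, 47.88, 114.12, 54.96 and 41.34 FPKM of Car4, and overlapped both. The change from CAC to CAC_F was -1.03 ± 0.57 (edgeR, adjusted p = 0.152). CAC_FP mice had 77.32, 60.68, 12.37, 22.38 and 35.11 FPKM, -0.72 ± 0.57 from CAC (edgeR, adjusted p = 0.381) and -1.30 ± 0.56 from NC (edgeR, adjusted p = 0.0830). In CAC_FPL Car4 covered a wide range, from 7.86 through 67.15 to 141.71 FPKM, and differed from CAC_F by 1.26 ± 0.55 (edgeR, unadjusted p = 0.0324, adjusted p = 0.125). Here 12.2% of all genes were called between CAC_FPL and CAC_F, and 0 of the 8 were by edgeR or voom, 2 had an unadjusted p below 0.05, and DESeq2 called 1, Car3.

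Car8 showed the largest called change of the 8 genes, a drop after FOLFOX. Its FPKM in NC was even, from 38.04 through a median of 46.31 to 54.44. CAC mice had 49.19, 2.57, 55.60, 58.83 and 40.73 FPKM, replicate 2 alone being low. CAC_F mice had 19.15, 1.74, 3.69, 11.65 and 8.37 FPKM. Every CAC_F library was below every NC library and below every CAC library except replicate 2. The change was -2.29 ± 0.81 from CAC (edgeR, adjusted p = 0.0270) and -2.49 ± 0.79 from NC (edgeR, adjusted p = 0.0129). The first of these passed the threshold no longer without CAC 3, CAC 4, CAC_F 2, CAC_F 3 or CAC_F 5, with adjusted p from 0.0514 to 0.0657. It also failed with no filter (0.0591), with only the 2 groups compared (0.0525) and with limma at either pseudocount (0.0610 and 0.0848). Without CAC 2 and CAC_FPL 3 it was -2.57 with an adjusted p of 0.00296.

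With probiotics Car8 stood at 12.82, 17.56, 0.92, 18.30 and 20.94 FPKM, again below every NC library. The changes were -1.67 ± 0.79 from CAC (edgeR, adjusted p = 0.134) and -1.87 ± 0.77 from NC (edgeR, adjusted p = 0.0737). Without CAC 2 and CAC_FPL 3 both passed, at -1.96 with an adjusted p of 0.0264 and at -1.85 with an adjusted p of 0.0224. In CAC_FPL the level ran from 1.29 through a median of 24.60 to 39.97 FPKM, and its changes from CAC (-1.02 ± 0.73, edgeR adjusted p = 0.467) and from NC (-1.22 ± 0.71, edgeR adjusted p = 0.288) were not called. Compared directly, Car8 in CAC_FPL exceeded CAC_F by 1.27 ± 0.76 on the log2 scale, which did not pass (edgeR, adjusted p = 0.254). In CAC_FP it exceeded CAC_F by 0.62 ± 0.77, which did not pass either (edgeR, adjusted p = 0.716). No group received the additions without FOLFOX, so whether they altered the response to FOLFOX could not be tested.

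Both Hoxb13-high libraries were low in Car1 and Car8. CAC 2 and CAC_FPL 3 had 505.95 and 509.19 FPKM of Car1 and 2.57 and 1.29 of Car8, while Car4 in CAC_FPL 3 was 141.11, among the highest. CAC_F 2, with the next highest Hoxb13 at 2.47, had the lowest Car1 of all libraries, 258.18, but NC 1, at 2.28 of Hoxb13, had 4696.78. Low Car8 also occurred without high Hoxb13. The lowest Car8 of all libraries, 0.92 FPKM, was in CAC_FP 3, where Hoxb13 was no higher than 2.47 and Car1 was at 3609.47. CAC_FPL 3 also had the lowest Car12, at 5.55 FPKM. Whether the place along the colon from which a segment was cut moved these genes was not tested. Cell markers also differed between CAC_F and CAC, where 39.1% of all genes were called. Of 10 goblet cell genes 6 were lower and 0 higher, led by Clca1 at -4.54 ± 0.64 and Retnlb at -3.21 ± 0.74. Of 12 smooth muscle genes 11 were lower and 0 higher, led by Actg2 at -2.37 ± 0.44 and Des at -1.91 ± 0.39. The goblet cell genes summed to 4708 FPKM in CAC 2 and 4345 in CAC_FPL 3, within the ranges of the other libraries of those groups or close to them. The part of either list in the Car8 result was not tested.

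**Figure D3:**
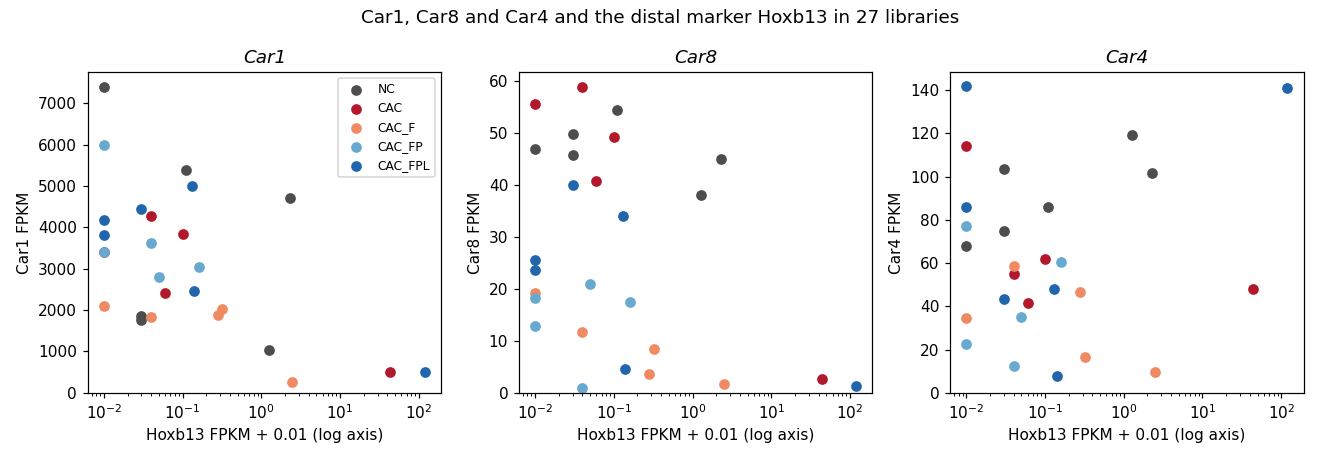
FPKM of Car1, Car8 and Car4 (vertical, linear from 0) against Hoxb13 FPKM plus 0.01 (horizontal, log axis) in the 27 libraries colored by group. CAC 2 and CAC_FPL 3, at 43.51 and 119.91 FPKM of Hoxb13, have 505.95 and 509.19 FPKM of Car1.

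Car9, a membrane enzyme known as a target of the hypoxia-inducible factor and as a marker of hypoxic tumors, was higher after FOLFOX. CAC mice had 25.23, 25.57, 20.79, 18.22 and 20.53 FPKM, and NC ran from 18.26 through a median of 20.76 to 24.67. CAC_F mice had 34.92, 23.12, 29.66, 36.68 and 39.21 FPKM. All but replicate 2 of CAC_F were above every CAC and NC library. The change from CAC was 0.50 ± 0.16 on the log2 scale (edgeR, adjusted p = 0.0179), lost only without CAC 4, at an adjusted p of 0.0508, among the 38 alternative fits.

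Similar levels of Car9 were measured with the additions. CAC_FP mice had 32.66, 32.92, 29.96, 31.89 and 23.52 FPKM, a change of 0.38 ± 0.16 from CAC that was not called (edgeR, adjusted p = 0.0992). CAC_FPL ran from 20.50 through a median of 34.04 to 43.81 FPKM, a change of 0.54 ± 0.16 from CAC (edgeR, adjusted p = 0.0692) and of 0.52 ± 0.15 from NC (edgeR, adjusted p = 0.0340). Between CAC_FPL and CAC 1.41% of all genes were called by edgeR and 0 of the 8, of which 2, Car9 and Car13, had an unadjusted p below 0.05. DESeq2 called Car9 and voom called both, and without CAC 2 and CAC_FPL 3 edgeR called Car9 at an adjusted p of 0.0396 and Car13 at 0.0205. Between CAC_FPL and NC 7.08% of all genes were called, and Car9 was the only one of the 8. That call was lost without NC 1, NC 3, NC 4, NC 5, NC 6, CAC_FPL 4 or CAC_FPL 5, with adjusted p from 0.0513 to 0.0889, and also with no filter (0.0753) and with only the 2 groups compared (0.0786).

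A hypoxia response element is built around the letters ACGTG, and the promoter of Car9 is shown because it holds them at 1 place. The sequence is the RefSeq promoter of Car9 on the GRCm38.p6 build, chr4:43506776-43507075, plus strand, 250 bases before to 50 after the start of the gene. The capitals mark the match, read on the minus strand, 18 bases before the start.
Car9 promoter: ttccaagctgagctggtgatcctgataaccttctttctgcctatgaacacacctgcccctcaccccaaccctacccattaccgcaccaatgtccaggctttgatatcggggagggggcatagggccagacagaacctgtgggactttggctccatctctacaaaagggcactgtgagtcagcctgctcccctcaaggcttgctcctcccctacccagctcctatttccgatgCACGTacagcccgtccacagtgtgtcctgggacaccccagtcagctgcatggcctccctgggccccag
On either strand these letters occurred in 19.6% of the 32851 promoters of the same length in the table. Promoters of 3 of the 8 genes were matched, Car4, Car9 and Car12, and the letters occurred in those of Car9 and Car4. The presence of the letters is a description and was not linked to binding here.

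Of 20 other genes of the hypoxia response, Car9 not among them, 6 were higher and 2 lower in CAC_F than in CAC. These 8 of 20 are close to the 39.1% called among all genes, and the median log2 fold change of the 20 was 0.11, against -0.03 over all genes. The changes with the smallest p were in Hk2, the first enzyme of glycolysis (1.79 ± 0.28, edgeR adjusted p = 8.12e-05), and in Eno1 and Pgk1, further glycolytic enzymes (0.91 ± 0.17 and 0.77 ± 0.16). Adm, a vasodilator peptide, rose by 2.36 ± 0.54 (edgeR, adjusted p = 0.00160). Ldha and Angptl4 were the other 2 that rose, and P4ha1 and Pdk1 were the 2 that fell. Vegfa and Slc2a1, named after their values were seen, were not called, at 0.11 ± 0.20 and 0.33 ± 0.18. In CAC_FP against CAC 6 of the 20 were higher and 1 lower (Egln1), with Hk2 at 1.14 ± 0.27, Eno1 at 0.78 ± 0.17, Pgk1 at 0.53 ± 0.16 and Adm at 1.78 ± 0.53, all 4 called. Of all genes, 18.6% were called in that comparison. In CAC_FPL against CAC edgeR called 0 of the 20, and Hk2 had 0.63 ± 0.26 (adjusted p = 0.192). Only 1.41% of all genes were called there, so 0 of the 20 does not show a loss of these changes. Between CAC_FPL and CAC_F 12.2% of all genes were called, and of the 20 genes 1 was lower and 0 higher. That 1 was Hk2, with a log2 fold change of -1.16 ± 0.26 (edgeR, adjusted p = 0.0110). The median of the 20 was -0.03, against 0.02 over all genes.

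The Car9 locus overlaps a gene on the opposite strand, Gm12454, whose counts were 22.3% of those of Car9 at the median and 6.50% at the lowest. The highest share was in CAC 4, with 1022 counts beside 2555 of Car9. Libraries were made with a strand-marking kit, but the strand setting of the counting was not given in the sources used here. Gm12454 moved against Car9, at -1.07 ± 0.23 between CAC_F and CAC (edgeR, adjusted p = 0.00111).

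Car12, the other membrane-spanning enzyme, changed little. CAC mice had 16.33, 11.95, 14.42, 12.65 and 15.54 FPKM and CAC_F mice 16.77, 10.71, 11.91, 17.49 and 17.35. These ranges lay on each other, with a change of -0.01 ± 0.23 (edgeR, adjusted p = 0.967) whose interval of 2 SE ran from -0.47 to 0.44. CAC_FP mice had 18.30, 21.93, 18.38, 21.26 and 16.59 FPKM, all above the highest CAC library, 16.33. The change was nonetheless not called, at 0.36 ± 0.23 (edgeR, adjusted p = 0.271), and against CAC_F it was 0.37 ± 0.23 (edgeR, adjusted p = 0.430). CAC_FPL ran from 5.55 through 18.14 to 19.76 FPKM and NC from 12.22 through 15.20 to 21.13.

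Across the FOLFOX groups the changes from CAC differed in order by gene. Between CAC_FP and CAC 18.6% of all genes were called, and 2 of the 8, Car2 lower and Car13 higher. Between CAC_FP and CAC_F 0.0% of all genes were called and 0 of the 8 by edgeR, DESeq2 or voom, with 0 of the 8 at an unadjusted p below 0.05. In that comparison 0 of the 15080 genes were called although 2401 had an unadjusted p below 0.05. The addition of loperamide to FOLFOX and probiotics likewise gave 0.0% of all genes in edgeR and 0 of the 8, with 1 of the 8, Car2, at an unadjusted p below 0.05, which voom called and DESeq2 did not. The largest fitted difference of that comparison was that of Car3, 3.42 ± 2.10, followed by Car4, 0.94 ± 0.55 (edgeR, adjusted p = 0.767 and 0.760).

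**Figure D4:**
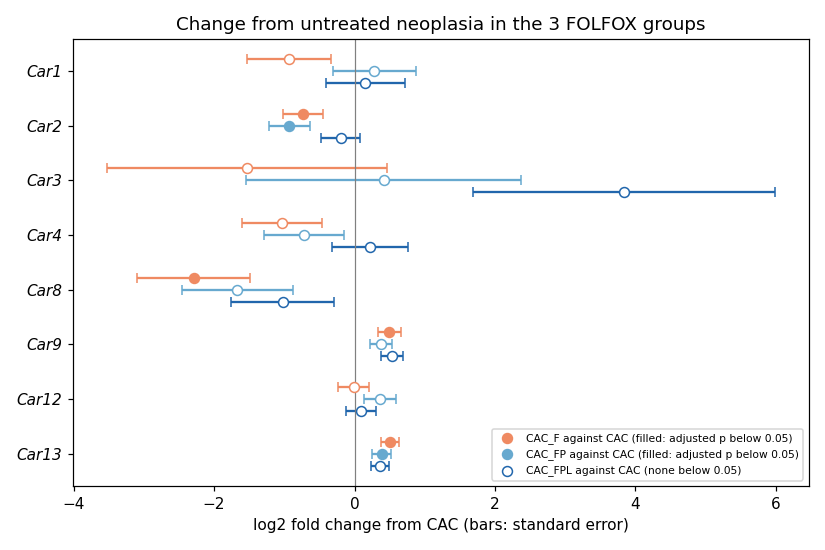
Log2 fold change from CAC (horizontal) of the 8 genes in CAC_F, CAC_FP and CAC_FPL, with bars of 1 SE from edgeR. Filled points passed an adjusted p of 0.05: Car2 and Car8 lower and Car9 and Car13 higher in CAC_F, and Car2 lower and Car13 higher in CAC_FP.

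By group mean, adjacent groups overlapped for all 8 genes. Car1 ran, from highest to lowest mean, CAC_FP, NC, CAC_FPL, CAC and CAC_F. Car4 and Car8 had their highest mean in NC and their lowest in CAC_F, and Car2 had its highest in NC and its lowest in CAC_FP. Car9 and Car13 had their 3 highest means in the 3 FOLFOX groups. Since neighbours in these orders overlap, the orders describe these mice only.

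Several exchangers and channels that work with carbonic anhydrases fell after FOLFOX, at a total share of calls close to that of all genes, 39.1%. Of 18 genes of bicarbonate, proton and chloride transport 17 were tested, and 6 were lower and 1 higher in CAC_F than in CAC, with a median log2 fold change of -0.40. The smallest p was that of Slc4a7, a sodium bicarbonate cotransporter (-0.75 ± 0.17, edgeR adjusted p = 0.00123). The chloride loader Slc12a2 (-0.77 ± 0.20) and the anion exchanger Slc4a2 (-0.91 ± 0.24) also fell. Others that fell were the bicarbonate cotransporter Slc4a4 and the chloride and bicarbonate channel Cftr, and the 1 that rose was Slc16a3, a lactate and proton exporter. Slc26a3, the chloride and bicarbonate exchanger of surface colonocytes, named after its values were seen, had -1.08 ± 0.62 (edgeR, adjusted p = 0.168). In CAC_FP 2 of the 17 were lower than in CAC and 0 higher, Slc4a7 at -0.66 ± 0.16 and the water channel Aqp4 at -4.23 ± 1.39. Of all genes, 18.6% were called in that comparison. In CAC_FPL against CAC edgeR called 0 of the 17, Slc4a7 having -0.42 ± 0.16 (adjusted p = 0.152). Only 1.41% of all genes were called there, so 0 of the 17 does not show a loss of these changes.

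Markers of surface colonocytes changed in both directions between CAC_F and CAC. Of 17 tested, 3 were lower in CAC_F than in CAC, the secreted peptide Guca2a at -1.93 ± 0.38, the cytochrome Cyp2c55 at -4.67 ± 1.09 and the fatty acid binder Fabp2 at -2.28 ± 0.60, and 1 was higher, Clca4a at 1.87 ± 0.60. Their median was -0.03, equal to that of all genes. Against NC, where Car4 and Car2 were lower in CAC_F and Car2 in CAC_FP, 7 of the 17 were lower and 0 higher in CAC_F (median -0.54), and 4 lower and 0 higher in CAC_FP (Aqp8, Slc26a3, Fabp2 and Slc37a2, median -0.40). As totals these counts are close to the shares of all genes called in either direction against NC, 46.3% for CAC_F and 26.5% for CAC_FP. In direction they differ, since the markers were called lower only. Of all 15080 genes, 3409 were higher and 3567 lower in CAC_F, and 2121 higher and 1881 lower in CAC_FP. The remaining lists are given for CAC_F against CAC, where 39.1% of all genes were called. Markers of dividing cells were higher, 9 of 10, with a median of 1.11, led by Rrm2 at 2.53 ± 0.44 and the replication helicase genes Mcm4, Mcm3 and Mcm2. Of 8 general epithelial markers 2 were higher, Krt18 at 0.63 ± 0.17 and Cdh1 at 0.35 ± 0.14, and 0 lower by edgeR. Of 6 tested stem and crypt base genes 1, Rgmb, was lower at -1.39 ± 0.20. These are the cell markers of the same segments as the carbonic anhydrases, and their part in the changes of the 8 genes was not tested.

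The other 8 genes named Car were scarce. Car5a, Car6, Car7 and Car10 were below 1 FPKM in every library and Car14 reached 1.40 at most. Car5b, a mitochondrial enzyme, Car11, an acatalytic relative, and Car15, a membrane-anchored enzyme of mice, were tested. Of these, Car15 fell in CAC_F against CAC, by 1.54 on the log2 scale with an SE of 0.42 (edgeR, adjusted p = 0.00633), from a level that did not pass 1.20 FPKM in any library. Car15 reached 1 FPKM in 6 libraries, none of them in CAC_F or CAC_FP, where it was at most 0.45 and 0.87. It thus passed the filter through the other groups only. Car11 had -0.71 ± 0.36 and Car5b 0.97 ± 0.69, neither called.

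The genes nearest in profile to the other members differed from member to member. Car2 lay nearest Vmac, Ptprf and Pccb, at 0.24 to 0.29 log2 units of root mean square difference beside an SD of Car2 of 0.61. Car8 lay nearest Smim38, Tesc and Chrm1 (0.75 to 0.89, SD 1.83), and Car1 nearest Amn, Acaa1b and Isx (0.59 to 0.65, SD 1.15). Car4 lay nearest a gene with no symbol in the table, Slc6a14 and Slc13a2 (0.59 to 0.67, SD 1.16). For Car9, Car12 and Car13 the nearest genes were within 0.17 to 0.26, but these 3 themselves varied by an SD of only 0.27 to 0.39. Among the 8, Car9 and Car13 were the closest pair, at 0.31. These are descriptions over the 27 libraries, which share group and depth.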

How the data were processed

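Per the labels, total RNA was taken with Trizol and made into dUTP strand-marked mRNA libraries, all in 1 batch. The authors deposited raw counts and FPKM for 39971 genes. Per the submitters' processing notes cutadapt 1.9, FastQC and HISAT2 were used; the counting tool, strand setting, annotation and build were not given in the sources used here. All columns were matched to samples by title.

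Genes with FPKM of at least 1 in at least 5 libraries were tested (15080, holding 99.3% of counts). Counts of all 27 libraries, scaled by TMM, were fitted in 1 edgeR 4.0.16 quasi-likelihood model with a coefficient per group and no replicate term (R 4.3.3). SE was derived as the fold change on the log2 scale divided by the root of the F statistic, and is approximate near 0 counts. The test was checked on simulated counts. Each library was taken as 1 mouse; the labels number the samples without stating this, and p-values measure the spread between these samples. Alternatives were other filters and scalings, a replicate block, limma 3.58.1 on log2 of the deposited FPKM plus 1 or 0.1, voom, DESeq2 1.42.0, and leaving out libraries. Named genes are the 8 members, the 3 nearest profiles of each (predicted genes and antigen receptor segments left out) and, from each list, no more than 4 of those called in CAC_F against CAC, by adjusted p; other genes behind small counts were named after their values were seen. Members and lists were chosen with earlier results of these data known. Where a name had 2 rows, that with more counts was used. Overlapping genes may share reads. Some results are not reported here.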

Additional observations from a re-analysis of the deposited data

Results flagged for a closer look

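In 6 of the 40 gene and group combinations, 1 library stood apart from the others of its group, its gap to the nearest library being large for the whole range. Chance gives about 1 in 20 for values with a normal spread. FPKM need not have that spread, so the 6 of 40 cannot be set against this rate. These were not tested for a cause. For Car1 the lowest CAC_F library had 258.18 FPKM, and the highest CAC_FP library had 5990.58. For Car3 the CAC library at 50.92 and the CAC_FPL library at 649.79 stood above their groups, and both were also the highest of their groups in Adipoq. For Car4 the highest CAC library had 114.12 FPKM, and for Car12 the lowest CAC_FPL library had 5.55.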

How the results depend on the processing

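For 49 pairs of a gene and a comparison, 38 alternatives gave 1862 values. Of these values, 1727 kept direction and side of the threshold, 59 lost the call and 33 gained it. The other 43 changed sign, all 43 among changes that had not been called. The 49 pairs were selected for the text and are not all pairs of the 8 genes. Car9 and Car13 in CAC_FP against NC, for example, were left out. The changes of sign listed below are of the same 49 pairs. The cause of each change was not tested. The count of the 8 genes called changed as follows. In CAC_F against CAC (4) it was 2 with no filter and 2 with limma at either pseudocount, 3 with median-ratio size factors, total counts and only the 2 groups compared, and 1 to 4 with 1 library left out. In CAC_FP against CAC (2) it was 0 with no filter, 3 with total counts and without CAC 2 and CAC_FPL 3, and 0 to 3 with 1 library left out. In CAC_FPL against CAC (0) it was 1 with total counts, 2 without CAC 2 and CAC_FPL 3, 2 with voom, 1 with DESeq2 and 0 to 2 with 1 library left out. In CAC_FPL against CAC_FP (0) voom gave 1 (Car2). In CAC_FPL against CAC_F (0) DESeq2 gave 1 (Car3), and leaving out 1 library gave 0 to 1. In CAC_F against NC (5) DESeq2 and leaving out CAC 2 and CAC_FPL 3 gave 6, adding Car1, and leaving out 1 library gave 3 to 6. In CAC_FP against NC (1) it was 3 with a mean FPKM of at least 5, with total counts, without CAC 2 and CAC_FPL 3, with limma at either pseudocount and with DESeq2, 5 with only the 2 groups compared, 4 with voom, and 1 to 3 with 1 library left out. In CAC_FPL against NC (1) it was 0 with no filter and with only the 2 groups compared, 2 with total counts, without CAC 2 and CAC_FPL 3 and with voom, and 0 to 2 with 1 library left out.

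Signs changed for Car1 in CAC against NC, to 0.013 with voom; for Car9 there, to 0.021 with a mean FPKM of at least 5, 0.056 with total counts, 0.046 and 0.048 with limma and -0.068 to 0.033 with 1 library left out; for Car3 in CAC_F against CAC, to 0.14 and 0.35 with limma at pseudocounts 1 and 0.1 and to -2.22 to 2.92 with 1 library left out; and for Car3 in CAC_FP against CAC, to -0.81 with the replicate block and -0.48 to 4.87 with 1 library left out. Car12 in CAC_F against CAC was 0.032 with no filter, 0.0044 with median-ratio size factors and with DESeq2, 0.080 with total counts, 0.0084 with only the 2 groups compared, 0.045 and 0.046 with limma, 0.066 with voom and -0.071 to 0.11 with 1 library left out. Car1 in CAC_FPL against CAC was -0.11 to 0.39 with 1 library left out. Car4 in that comparison was -0.14 without CAC 2 and CAC_FPL 3, -0.10 and -0.12 with limma, -0.31 with voom and -0.031 to 0.57 with 1 library left out.

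Libraries with the same replicate number correlated from -0.47 to 0.36 in their deviations, with a median of 0.004 (51 pairs, 12 above 0.1). Libraries with different numbers were not correlated for reference, so whether the numbers pair the mice was not settled. The replicate block left the count of the 8 genes called at 4 in CAC_F against CAC, 2 in CAC_FP against CAC and 5 in CAC_F against NC, and at its main value in every other comparison. Scaling by total counts moved the median of all genes to 0.14 in CAC_F against NC, 0.12 in CAC_FP against NC and 0.13 in CAC_FPL against NC. Of the changes called, Car13 in CAC_F against CAC and Car8, Car9 and Car13 in CAC_F against NC and Car2 in CAC_FP against NC held under all 38. Counts limit only Car3 and Car8 in their lowest libraries, with 11 and 244 counts; elsewhere the spread between 5 or 6 mice is the limit.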
